A study of Caenorhabditis elegans with 9 samples.

Results

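The genes described here build, regulate and anchor the contractile apparatus of C. elegans muscle. They are 40 genes listed by name, with earlier results of these data known. On the array 38 had a probeset (a set of short probes whose signals are combined) assigned to that gene alone, out of 17118 genes tested. Where a gene had several such probesets, the brightest was used, so measured signals entered that step. The actin genes act-1 and act-2 had only probesets that they share with other actin genes and are given apart. The assignment is that of the platform annotation. Of the 38 probesets, 18 have names ending in _s_at and 6 in _x_at, the latter including those of unc-52 and unc-112. Whether these also read other transcripts was not checked. Wild type N2 worms in the axenic liquid medium CeHM were exposed to sodium arsenite at 0.003% (w/v, low dose) or 0.03% (w/v, high dose) for 6 h at 22 °C, or were left unexposed (control). Total RNA of 3 samples per group, from whole animals, was hybridized to 9 Affymetrix C. elegans arrays. All groups share the strain, the medium and the synchronization of bleached eggs held in M9 buffer for 24 h. The sources give the larval stage differently, as L3 in the sample labels, as L1 in the methods and as L4 in the results text, so the stage is not settled here. The samples are labelled as biological replicates from independent RNA extractions, but whether each came from its own culture is not stated. The p-values therefore reflect only how much these samples vary, and that variation may be technical.

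Body-wall muscle of the worm contracts by sliding thick filaments of myosin and paramyosin past thin filaments of actin, and calcium bound to the troponin complex on tropomyosin allows that sliding. Unlike vertebrate skeletal muscle, every thin and thick filament array is tied directly to the cell membrane, through dense bodies and M-lines. These structures are built around integrin (PAT-2 and PAT-3), which binds the perlecan UNC-52 in the basement membrane outside the cell. On the inside, integrin is joined by the kindlin UNC-112, the integrin-linked kinase homolog PAT-4, the parvin PAT-6 and the LIM-domain protein UNC-97 (PINCH). PAT-4, PAT-6 and UNC-97 are known to bind each other in 1 complex, and loss of most of these proteins arrests embryos paralysed at the stage when they should elongate. The pharynx, a separate feeding muscle, uses its own myosins and troponins.

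The values are probeset signals on the log2 scale, so a difference of 1 is a doubling, and the number of arrays per group limits the precision. The median signal of an array was 8.42 to 8.52, and arrays of the same group correlated with r between 0.940 and 0.952 across genes, with no array standing apart. A gene passed the test, and is said below to have risen or fallen, when limma gave an adjusted p of at most 0.05 over all 17118 genes with a change of at least 1.2 fold. The members were bright genes. All 38 lay in the brighter 50% of genes by their mean over the arrays, and 26 of them in the brightest 10%. Each gene stood on its brightest probeset, and 23 of the members had several to choose from, against 2981 of the 17118 genes. The part of that choice in the rank of the members was not tested. The median standard error (SE) of the members was 0.13, against 0.22 for all genes. In RNA from whole worms, fewer muscle cells and less of a transcript per muscle cell cannot be told apart.

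At the high dose 6 of 10 attachment genes, 4 of 9 tropomyosin and troponin genes, 1 of 8 thick filament genes and 0 of 5 measured actin genes and actin regulators fell, and the difference between these groups was not tested. Of the 38 members, 12 fell, 1 rose and 25 did not pass the test. Over all genes 20.0% passed in this comparison, 9.0% upward and 11% downward. Among the brighter 50% of genes, a background added after the values were seen, 31.6% passed, 13.7% upward and 17.9% downward. The share of members that passed in either direction, 34.2%, is near that of the brighter 50%. The downward share of the members was 31.6% and the upward share was 2.63%. The match in brightness is only partial, since 35 of the 38 members lie in the brightest 25% of genes and 26 in the brightest 10%. The difference from control was negative for 34 members, and its median was -0.36, against -0.05 for all genes tested. The 3 high dose arrays lay wholly below the 3 control arrays for 23 members and wholly above them for 2, which together is 65.8% of the members. Over all genes that held for 38.4%, with 21.7% lower and 16.7% higher. The share without overlap was not taken among the brighter 50% of genes in any comparison, so it is not matched for brightness.

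**Figure D1:**
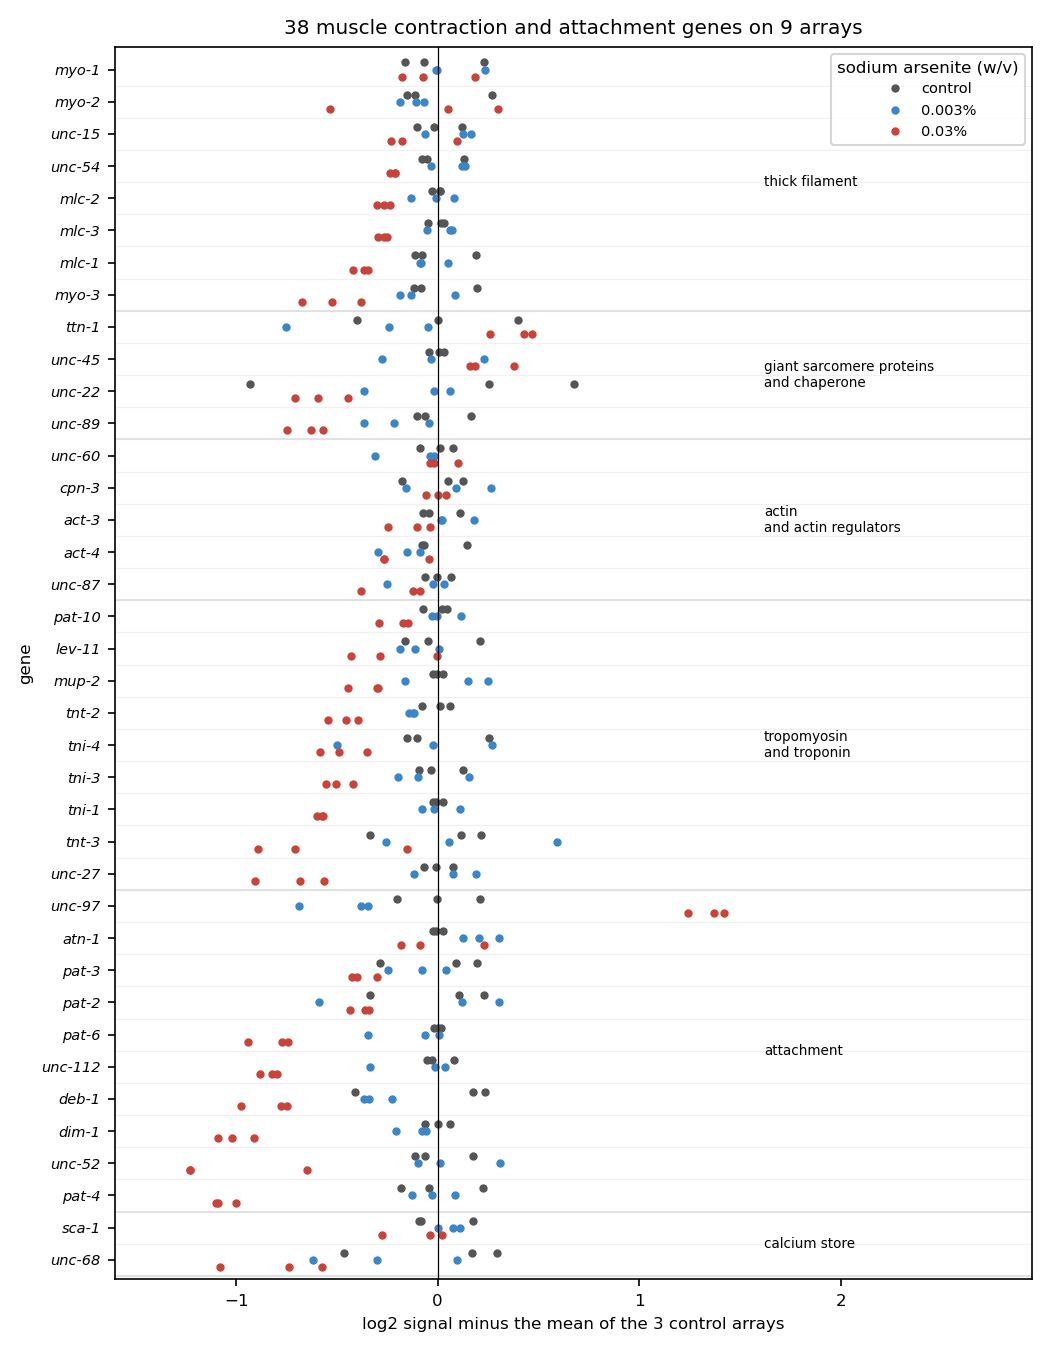
Signal of each of the 38 measured members on each of the 9 arrays, as the log2 difference from the mean of the 3 control arrays (x axis), 1 line per gene, grouped by role and coloured by dose. High dose points of attachment genes such as pat-4, unc-52 and dim-1 lie near -1, those of unc-97 lie above 1, and low dose points mostly lie among the control points.

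The attachment genes were the only role group with members that passed in both directions. Of 10 members, 6 fell (pat-4, unc-52, dim-1, deb-1, unc-112 and pat-6), 1 rose (unc-97) and 3 did not pass (pat-2, pat-3 and atn-1), and the median difference was -0.83. The intracellular partners of integrin are described first.

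For pat-4, the integrin-linked kinase homolog, the control arrays read 11.16, 10.75 and 10.89, the low dose arrays 11.02, 10.91 and 10.81, and the high dose arrays 9.93, 9.84 and 9.84. All 3 high dose arrays lay below the other 6, and the low dose arrays fell inside the control range. The decrease at the high dose was 2.09-fold, a log2 difference of -1.06 (SE 0.13, limma adjusted p = 0.00123). For pat-6, the parvin that binds PAT-4, the control arrays read 12.34, 12.35 and 12.37, the low dose arrays 12.01, 12.36 and 12.29, and the high dose arrays 11.58, 11.61 and 11.42. The high dose arrays again lay below all others, by a log2 difference from control of -0.82 (SE 0.12, adjusted p = 0.00332). For unc-112, the kindlin that activates integrin and recruits PAT-4, the control arrays read 11.36, 11.47 and 11.33, the low dose arrays 11.05, 11.37 and 11.42, and the high dose arrays 10.59, 10.50 and 10.56. The groups did not overlap at the high dose, and the difference from control was -0.83 (SE 0.13, adjusted p = 0.00322). The second probeset of unc-112 gave -0.66 (adjusted p = 0.0565) and did not pass.

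The direct partner of PAT-4, unc-97, went the other way. Its control arrays read 12.48, 12.67 and 12.89, its low dose arrays 11.99, 12.33 and 12.30, and its high dose arrays 14.05, 13.92 and 14.10. The high dose arrays were the highest of the 9 and the low dose arrays the lowest, with no overlap between any of the groups. The increase at the high dose was 2.54-fold, a log2 difference of 1.34 (SE 0.15, adjusted p = 0.000773), the only increase among the members that passed the test. The second unc-97 probeset read 11.75, 11.31 and 11.73 in control and 13.45, 13.56 and 13.46 at the high dose, a difference of 1.89. Its low dose arrays, at 11.66, 11.35 and 11.53, lay within the control range.

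Outside the cell, the basement membrane perlecan unc-52 read 12.10, 12.39 and 12.15 in control, 12.52, 12.23 and 12.12 at the low dose, and 10.99, 10.99 and 11.57 at the high dose. It fell 2.05-fold at the high dose, with 1 of the 3 arrays closer to control than the other two, and the log2 difference was -1.03 (SE 0.20, adjusted p = 0.00960). In a fit over all probesets, its second brightest probeset gave -0.80 and did not pass (adjusted p = 0.0942), while the third gave -0.78 and did (adjusted p = 0.00722). The immunoglobulin-domain protein dim-1, which lies around the dense bodies and whose loss suppresses unc-112 mutations, read 14.36, 14.42 and 14.29 in control, 14.15, 14.30 and 14.28 at the low dose, and 13.33, 13.45 and 13.27 at the high dose. It had the smallest p-value among the members that fell, with a difference of -1.01 (SE 0.10, adjusted p = 0.000499). The vinculin gene deb-1, a component of dense bodies, read 11.61, 12.197 and 12.26 in control, 11.80, 11.68 and 11.66 at the low dose, and 11.24, 11.27 and 11.05 at the high dose. The high dose arrays were below all others, but the control arrays were spread, and the difference of -0.83 (SE 0.18, adjusted p = 0.0170) no longer passed without control array 2 (adjusted p = 0.0614), control array 3 (0.0569) or high dose array 3 (0.0582).

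The integrin chains themselves and alpha-actinin did not pass. The alpha integrin pat-2 read 11.25, 11.13 and 10.69 in control, 10.44, 11.33 and 11.14 at the low dose, and 10.66, 10.59 and 10.68 at the high dose. Control and high dose arrays met without overlapping, and the difference was -0.38 with an SE of 0.25 (adjusted p = 0.366). Its second probeset gave -0.68 and passed (adjusted p = 0.0380), so the call for pat-2 depends on the probeset. The beta integrin pat-3 read 12.38, 12.48 and 11.9999 in control, 12.33, 12.04 and 12.21 at the low dose, and 11.89, 11.86 and 11.98 at the high dose. Its arrays did not overlap at the high dose, although the difference of -0.38 (SE 0.15, adjusted p = 0.138) did not pass, and without control array 3 it became -0.52 and did (adjusted p = 0.0478). The alpha-actinin gene atn-1, which crosslinks thin filaments in dense bodies, read 11.80, 11.84 and 11.79 in control, 12.01, 12.11 and 11.93 at the low dose, and 11.72, 11.63 and 12.04 at the high dose. Its high dose difference was -0.01, with a 95% confidence interval from -0.32 to 0.29, so a change as large as that of pat-4 lies outside that interval.

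**Figure D2:**
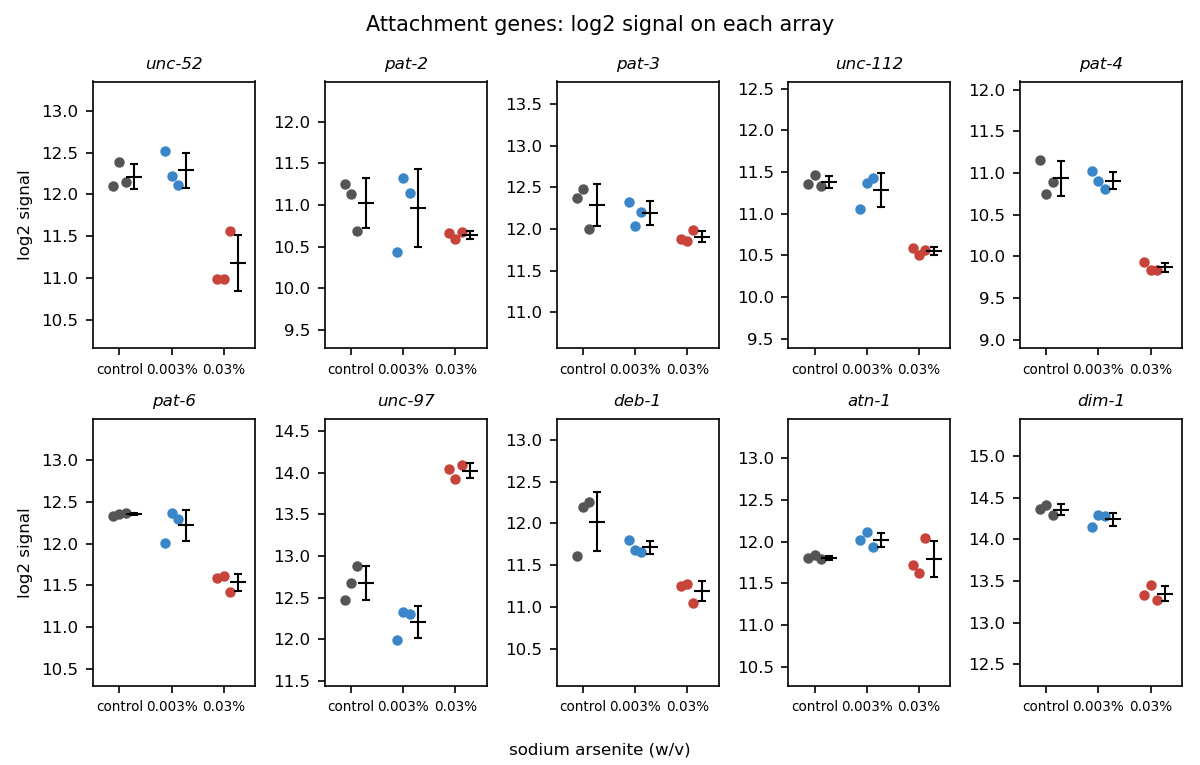
Log2 signals of the 10 attachment genes on each of the 9 arrays (points), with the group mean ± SD beside them, for control, 0.003% and 0.03% sodium arsenite. For pat-4, pat-6, unc-112, dim-1, unc-52 and deb-1 the 3 high dose points lie below all others, for unc-97 they lie above, and for atn-1 they overlap the control points.

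Tropomyosin and troponin sit on the thin filament and switch it on when calcium rises. All 9 members differed from control in the negative direction at the high dose, with a median of -0.48, and 4 passed the test. Of these, unc-27, tni-1 and tni-3 encode troponin I, the inhibitory subunit, and tnt-2 encodes a troponin T, which holds the complex on tropomyosin.

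The body-wall troponin I gene unc-27 read 14.56, 14.65 and 14.51 in control, 14.77, 14.65 and 14.46 at the low dose, and 13.67, 13.89 and 14.01 at the high dose, a decrease of 1.64-fold (log2 difference -0.72, SE 0.13, adjusted p = 0.00846). A second troponin I gene, tni-1, read 12.53, 12.59 and 12.55 in control, 12.48, 12.67 and 12.54 at the low dose, and 11.96, 11.98 and 11.98 at the high dose, lower by a log2 difference of -0.58 (SE 0.10, adjusted p = 0.00477). In both genes the high dose arrays lay below the other 6 and the low dose arrays overlapped control. The troponin T gene tnt-2 read 14.23, 14.28 and 14.14 in control, 14.09, 14.07 and 14.10 at the low dose, and 13.67, 13.82 and 13.76 at the high dose. Its 3 groups formed non-overlapping steps, and the high dose difference was -0.46 (SE 0.10, adjusted p = 0.0130). That call was lost without control array 2 (adjusted p = 0.0511) or high dose array 1 (0.0502). The troponin I gene tni-3 read 12.35, 12.57 and 12.41 in control, 12.25, 12.60 and 12.34 at the low dose, and 11.89, 11.94 and 12.02 at the high dose, which gave -0.49 (SE 0.13, adjusted p = 0.0325). It no longer passed when any of 7 of the 9 arrays was left out, with adjusted p-values from 0.0529 to 0.107. These arrays were low dose array 3 and every control and high dose array. The genes unc-27, tni-1, tnt-2 and tni-3, like myo-3 and unc-89 below, are given in full although the naming rule required none of them.

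The other 5 members of the group did not pass. The pharyngeal troponin I tni-4 gave -0.48 (adjusted p = 0.178), the troponin T genes tnt-3 and mup-2 gave -0.58 (adjusted p = 0.218) and -0.35 (adjusted p = 0.113), troponin C pat-10 gave -0.20 and tropomyosin lev-11 gave -0.24. The mup-2 arrays, at 13.94, 13.91 and 13.89 in control and 13.46, 13.61 and 13.61 at the high dose, did not overlap. The 7 probesets of lev-11 ran from -0.78 to 0.39 with none passing, and the signals do not say which of its isoforms each probeset reads.

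**Figure D3:**
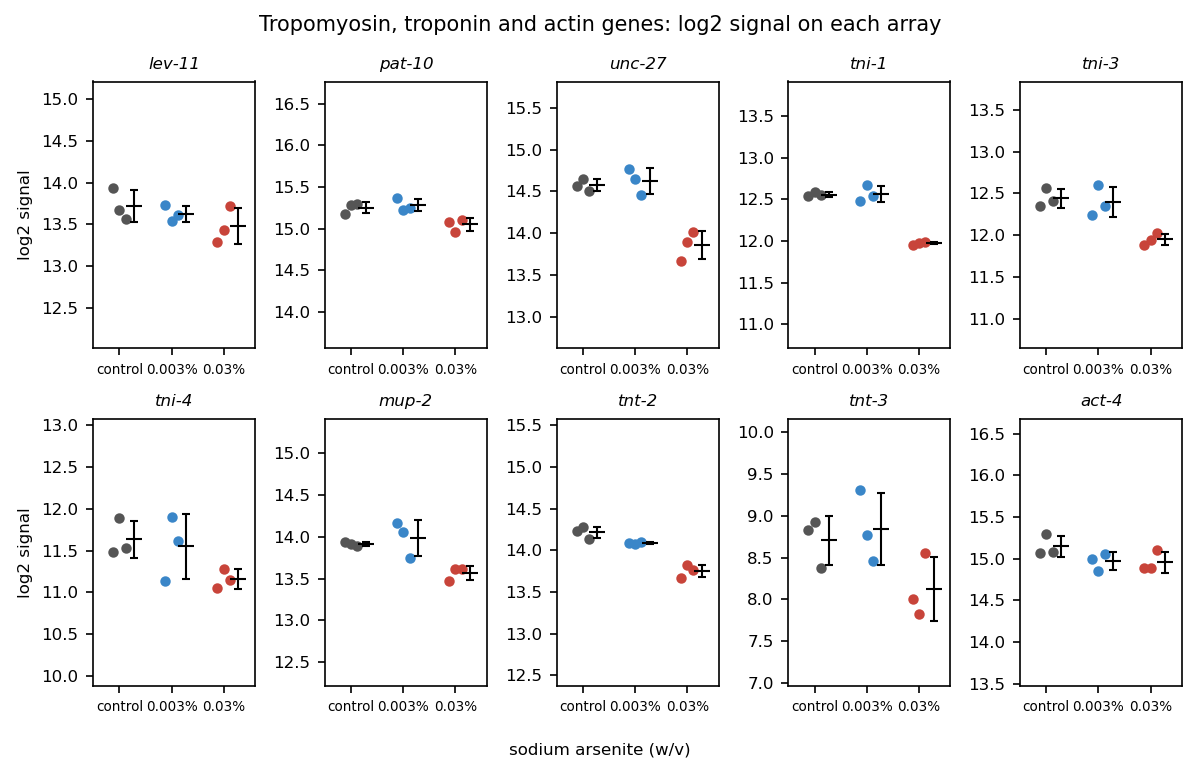
Log2 signals of the 9 tropomyosin and troponin genes and of act-4 on each of the 9 arrays (points), with the group mean ± SD beside them, for control, 0.003% and 0.03% sodium arsenite. All means at the high dose lie below the control means, and the high dose points overlap the control points only for lev-11, tnt-3 and act-4.

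In the thick filament, only the minor body-wall myosin passed. Among 8 members the difference at the high dose was negative for all 8, with a median of -0.24, and myo-3, the myosin heavy chain at the centre of the filament, fell. Its arrays read 11.56, 11.84 and 11.53 in control, 11.46, 11.73 and 11.51 at the low dose, and 10.97, 11.12 and 11.26 at the high dose, a decrease of 1.44-fold (log2 difference -0.53, SE 0.14, adjusted p = 0.0373). The groups did not overlap, but the call was lost without any one of 6 arrays, which were the 3 control arrays, low dose array 3 and high dose arrays 1 and 2 (adjusted p from 0.0593 to 0.119). The main body-wall myosin heavy chain unc-54 read 14.14, 14.35 and 14.16 in control and 14.003, 14.003 and 13.98 at the high dose, a difference of -0.22 that did not pass (SE 0.11, adjusted p = 0.206) even though the arrays did not overlap. The 2 regulatory light chains and the essential light chain behaved alike in size, with -0.38 for mlc-1 (adjusted p = 0.0603), -0.27 for mlc-2 (0.106) and -0.27 for mlc-3 (0.0868), and in each the high dose arrays lay below control. The pharyngeal myosins myo-1 and myo-2 gave -0.02 (95% confidence interval from -0.39 to 0.34) and -0.06, with overlapping arrays. Paramyosin unc-15, which forms the filament core, gave -0.10 on its brightest probeset and -0.38 on another that passed (adjusted p = 0.0371).

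The giant proteins that run along the filaments gave mixed values. The obscurin-like unc-89, an M-line protein, read 12.06, 12.29 and 12.02 in control, 11.76, 12.08 and 11.91 at the low dose, and 11.37, 11.50 and 11.56 at the high dose, and its log2 difference was -0.65 (SE 0.13, adjusted p = 0.0120). Its 5 probesets ran from -0.69 to 0.35, and with their mean in place of the brightest one the difference was -0.17 (adjusted p = 0.340). The twitchin gene unc-22 gave -0.58 with a wide error (SE 0.38, adjusted p = 0.358), and its control array 3 read 10.01 beside 11.20 and 11.62. Without that array the difference was -1.05 (adjusted p = 0.0170), and the second unc-22 probeset gave -1.09 and passed (adjusted p = 0.00340). The titin-like ttn-1 gave 0.39 (adjusted p = 0.353), with 6 probesets from -0.94 to 1.16, and the myosin chaperone unc-45 gave 0.24 (adjusted p = 0.319).

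Actin and its regulators had 5 measured members, and none of them passed at the high dose, with 0 also at an unadjusted p under 0.05. Values were -0.13 for act-3, -0.19 for act-4, 0.01 for the cofilin gene unc-60, -0.20 for the calponin-like unc-87 and 0.00 for the calponin-like cpn-3. The 3 probesets shared by several actin genes, which are the only reading of act-1 and act-2, gave -0.17, -0.24 and -0.08. Of the genes of the calcium store, the calcium pump sca-1 gave -0.10, and the ryanodine receptor unc-68, the release channel, gave -0.80 (SE 0.27, adjusted p = 0.0804). The unc-68 control arrays read 10.41, 11.05 and 11.17 and the high dose arrays 9.80, 10.30 and 10.14, all below control. This result turned on single choices, since unc-68 passed without control array 1 (-1.03, adjusted p = 0.0393) and on another of its probesets (-1.005, adjusted p = 0.0307).

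Several probesets read the same gene in 23 of the 38 members, which gave 82 probesets of their own in all. In 18 of the 23 all probesets pointed the same way at the high dose, and in the other 5 (lev-11, sca-1, ttn-1, unc-60 and unc-89) they pointed both ways. No member had a probeset that rose and another that fell past the threshold. For pat-4, deb-1, dim-1, tni-3 and unc-97 both probesets passed in 1 direction, and the second pat-4 probeset gave -1.22.

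**Figure D4:**
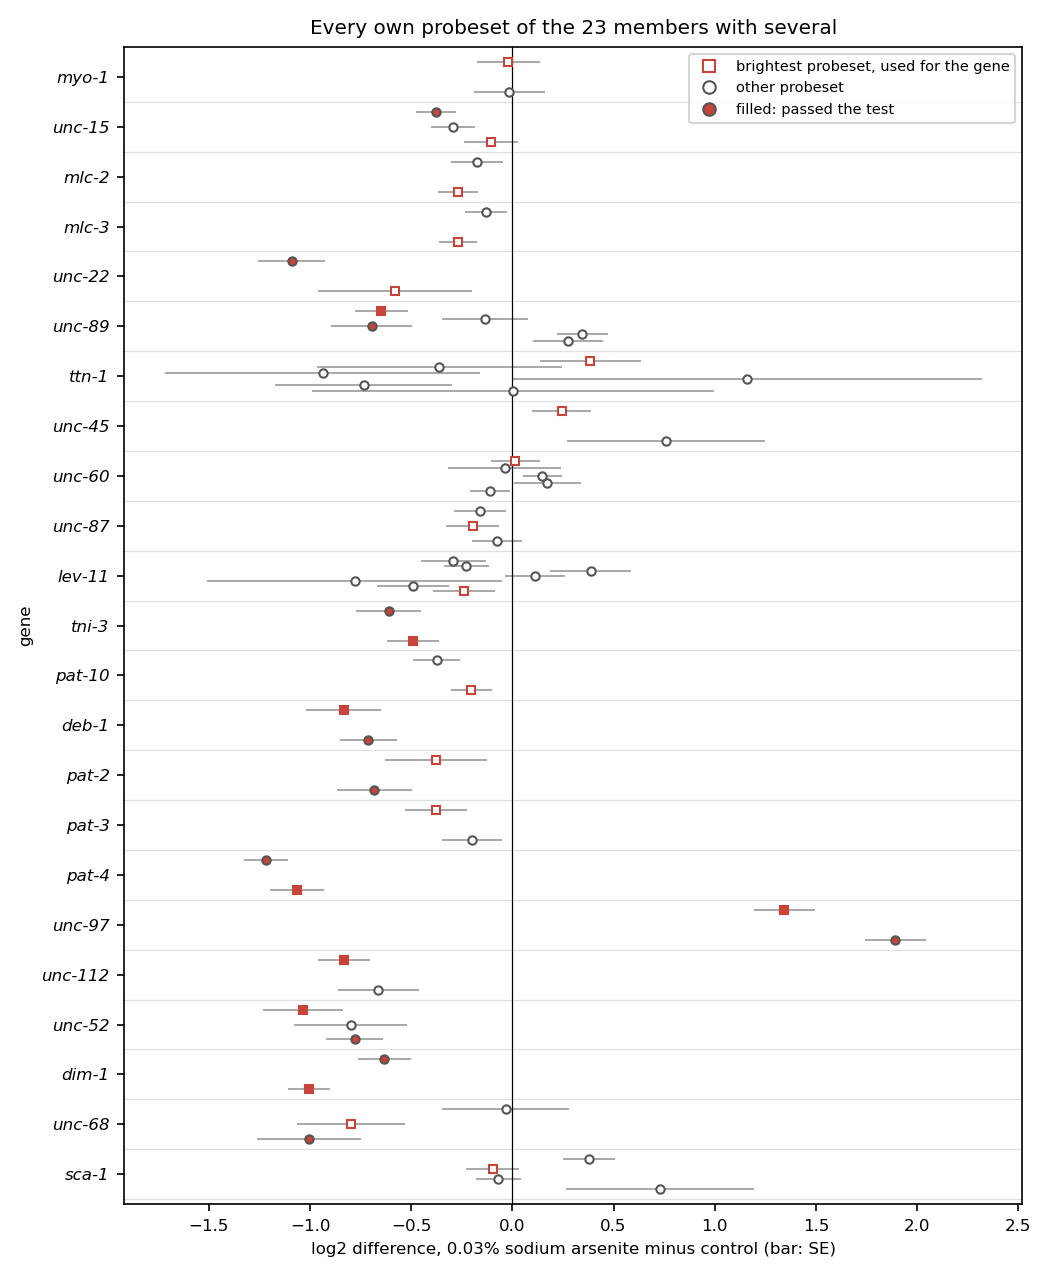
Log2 difference between the 0.03% and control arrays (x axis) with its SE (bars) for each probeset of the 23 members that have several, squares marking the brightest probeset used for the gene and filled symbols those that passed the test. The probesets of pat-4, dim-1, deb-1 and unc-52 all lie below 0 and both unc-97 probesets lie above 1, while those of lev-11, ttn-1 and sca-1 lie on both sides of 0.

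At the low dose none of the 38 members passed the limma test, and 1 of them, unc-97, had an unadjusted p under 0.05. The ordinary linear model without moderation also called 0, while limma with a variance trend and robust estimation called unc-97 (adjusted p = 0.0432). Over all genes 1.55% passed. The unc-97 difference was -0.47 (SE 0.15, adjusted p = 0.268), opposite in sign to its high dose difference. The other members lay between -0.35 and 0.21, the median was -0.05, against -0.01 for all genes, and the 95% confidence intervals of the members ran within -0.99 to 0.80. The low dose and control arrays did not overlap for 4 members, 10.5% of them, against 18.2% of all genes. They were atn-1, which was higher, and act-4, tnt-2 and unc-97, which were lower. For pat-4, unc-52 and dim-1, the 3 members with decreases of at least 2 fold at the high dose, the low dose differences were -0.02, 0.08 and -0.12. Both dose comparisons use the same 3 control arrays.

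Set directly against the low dose arrays, the high dose arrays showed 7 members lower and 1 higher. The 7 were the attachment genes pat-4, unc-52, dim-1, pat-6 and unc-112 and the troponin I genes unc-27 and tni-1, and the 1 was unc-97, with a difference of 1.81 (SE 0.15, adjusted p = 0.000297). On their second brightest probesets unc-52 gave -0.54 (adjusted p = 0.274) and unc-112 gave -0.59 (adjusted p = 0.0972) between the doses. Over all genes 16.8% passed between the doses, 7.34% upward and 9.49% downward, against 21.1% of the members. Arrays of the doses did not overlap for 60.5% of the members, against 34.0% of all genes. The differences were -1.11 for unc-52, -1.04 for pat-4, -0.89 for dim-1, -0.77 for unc-27, -0.73 for unc-112, -0.69 for pat-6 and -0.59 for tni-1, with adjusted p-values between 0.00122 and 0.00880. All 8 had also passed against control. The remaining 5 of the 12 that fell against control (deb-1, tni-3, tnt-2, myo-3 and unc-89) did not pass between the doses, with differences from -0.52 to -0.34 and adjusted p-values from 0.0523 to 0.103. Under other settings the count of members that fell between the doses reached up to 16.

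A wider set of 105 related genes, of which 102 were measured under names not already among the members, was set beside these values. These lists were not limited to genes that act only in muscle, so their counts and medians are not values of muscle alone. At the high dose 21 of the 102 fell and 2 rose (22.5% in all), with a median of -0.33, and at the low dose none passed (limma, with 6 at an unadjusted p under 0.05). The share of 22.5% in either direction is near the 20.0% of all genes and below the 31.6% of the brighter 50%. By direction the shares differed. The downward share was 20.6%, against 11% of all genes and 17.9% of the brighter 50%. The upward share was 1.96%, against 9.0% and 13.7%. The count of 21 dropped to 12 without control array 1, 13 without control array 3 and 13 without high dose array 2. Among 31 other attachment genes, 7 fell, a share of 22.6%, and none rose. The largest decrease was in unc-95, a LIM-domain protein of dense bodies and M-lines, which read 10.73, 10.78 and 10.82 in control, 10.63, 10.75 and 10.57 at the low dose, and 8.58, 7.91 and 8.48 at the high dose. Its log2 difference of -2.45 (SE 0.18, adjusted p = 0.000100) was below that of every one of the 38 members. The exchange factor uig-1, which binds UNC-112, fell by 1.09 (SE 0.19, adjusted p = 0.00647) and the zyxin gene zyx-1 by 0.75 (SE 0.18, adjusted p = 0.0232). The zyx-1 call was lost without control arrays 1 or 3 or high dose arrays 1 or 2 (adjusted p from 0.0665 to 0.0774). The other 4 were the laminin alpha chain epi-1, nidogen nid-1, the LIM-domain gene alp-1 and the apical attachment gene mua-3, which gave -0.75, -0.55, -0.63 and -0.70. The calls of nid-1, alp-1 and mua-3, but not that of epi-1, were lost on leaving out single arrays. The direction for mua-3 depended on the probeset, since its second one gave 0.48 (adjusted p = 0.767) and the mean of its probesets gave -0.11 (adjusted p = 0.909).

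Among 25 genes listed as other sarcomere proteins, 1 rose and 1 fell, with a median of -0.06. The BAG-domain co-chaperone unc-23, needed to keep muscle attached as the worm grows, read 10.07, 9.89 and 9.98 in control, 10.17, 10.25 and 10.24 at the low dose, and 11.12, 11.52 and 11.25 at the high dose, an increase of 1.32 (SE 0.13, adjusted p = 0.000400). The calponin-like clik-1 fell by 0.45 (SE 0.11, adjusted p = 0.0282). That call was lost when any control array or high dose array 2 or 3 was left out (adjusted p from 0.0606 to 0.0875).

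Of 35 excitation and calcium genes, 8 fell and none rose, with a median of -0.49. The junctophilin jph-1, which couples the calcium store to the surface membrane, fell by 1.24 (SE 0.26, adjusted p = 0.0142, and 0.0510 without control array 2). The plasma membrane calcium pump mca-3 fell by 1.198 (SE 0.16, adjusted p = 0.00156), although its second probeset gave -0.22 (adjusted p = 0.551). Its arrays read 9.50, 9.83 and 9.71 in control, 8.87, 9.03 and 8.63 at the low dose, and 8.30, 8.51 and 8.64 at the high dose, and the low dose difference of -0.84 missed the threshold (adjusted p = 0.0539). The acetylcholine receptor clustering protein lev-10 fell by 1.19 (SE 0.16, adjusted p = 0.00167), and its second probeset gave -0.53 (adjusted p = 0.211).

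Among 11 regulators of muscle fate 5 fell and 1 rose. The forkhead factor pha-4, which specifies the pharynx and also acts in the gut, read 8.41, 8.59 and 8.29 in control, 8.86, 8.58 and 8.54 at the low dose, and 10.51, 10.54 and 10.72 at the high dose, an increase of 2.16 (SE 0.14, adjusted p = 5.31e-05). The Hand-type factor hnd-1 read 6.71, 7.10 and 6.46 in control, 6.46, 5.43 and 6.16 at the low dose, and 3.72, 2.78 and 3.28 at the high dose. Its difference of -3.49 (SE 0.34, adjusted p = 0.000390) rests on dim signals, since its high dose arrays lie below 6.26, the limit of the dimmest 25% of genes. The Six-type homeodomain gene unc-39 fell by 1.54 (SE 0.31, adjusted p = 0.0118). The pharyngeal muscle factor ceh-22 fell by 1.26 (SE 0.31, adjusted p = 0.0269), a call lost without control arrays 2 or 3 or high dose array 2 (adjusted p from 0.0550 to 0.0856). It was also lost in a fit of the 2 groups alone (0.0690), with the replicate block (0.0646) and with the mean of its probesets (-0.84, 0.0502), and its second probeset gave -0.41 (adjusted p = 0.704). The other factors that fell were the serum response factor gene unc-120, at -0.78 (SE 0.11, adjusted p = 0.00251), and the T-box gene tbx-2, at -0.47 (adjusted p = 0.0390), a call lost on leaving out most single arrays. The MyoD homolog hlh-1 gave -2.09 with widely spread arrays (SE 0.88, adjusted p = 0.152). The genes unc-120, tbx-2 and hlh-1, like epi-1, nid-1, alp-1 and mua-3, were named after their values were seen.

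**Figure D5:**
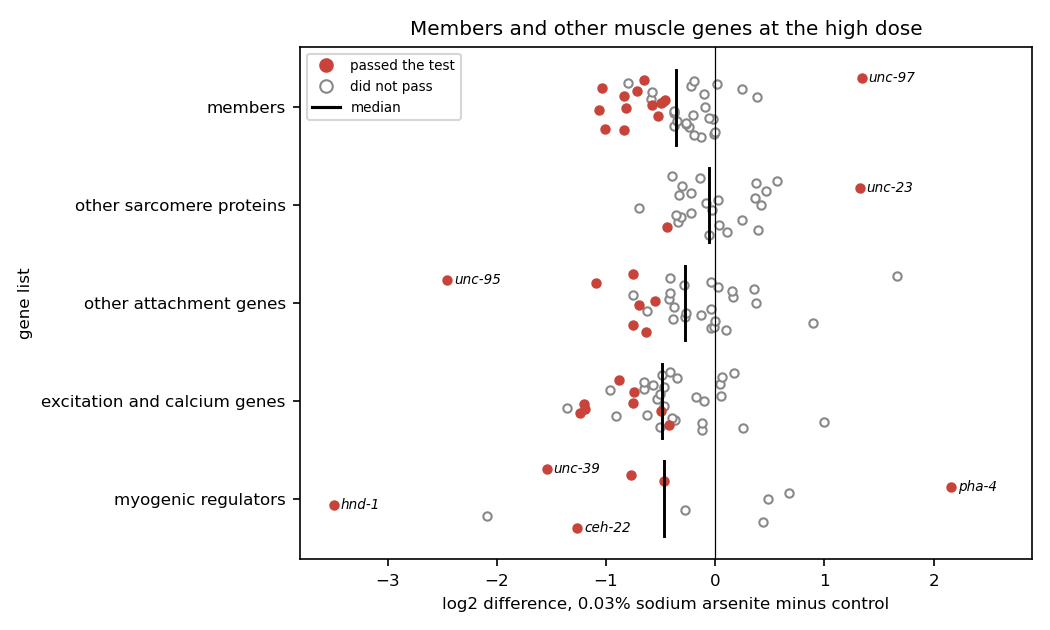
Log2 difference at 0.03% against control (x axis) for the 38 members and each related list, 1 point per gene, with the genes that passed the test filled and the median of each list as a thick line. The medians of all 5 lists lie below 0, from -0.49 to -0.06, while unc-97, unc-23 and pha-4 lie above 1 and unc-95 and hnd-1 below -2.

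Marker genes of other tissues moved in the same samples. At the high dose, 6 of 12 hypodermis markers and 6 of 13 germ line markers fell and none rose, 5 of 11 intestine markers fell and 1 rose, and of 15 neuron markers 1 fell and 1 rose. The summed linear signal of the 38 members ran from 469217 to 514633 over the control arrays, from 459001 to 491234 over the low dose arrays and from 396791 to 428888 over the high dose arrays. For the hypodermis list the control and high dose sums ran from 181709 to 189065 and from 137298 to 155294, for the intestine list from 162303 to 171620 and from 102208 to 108278, and for the germ line list from 45889.7 to 49279.1 and from 34589.6 to 35661. The neuron sums were higher at the high dose, from 31531.9 to 36241.9 against 26398.4 to 27903.4. Such sums are weighted towards the brightest genes. In mean log2 signal the neuron list overlapped control (9.40 to 9.77 at the high dose against 9.58 to 9.75). The hypodermis, intestine and germ line lists lay below control by that measure too. At the low dose the intestine sums (148620 to 159281) and germ line sums (40775.8 to 42582.6) lay wholly below control. The neuron sums (28344.9 to 34586.6) lay wholly above it, and the hypodermis sums (172828 to 191144) overlapped it. In mean log2 signal the intestine list (12.27 to 12.39 against 12.30 to 12.40) and the neuron list (9.39 to 10.09 against 9.58 to 9.75) overlapped control. The germ line list (11.05 to 11.17 against 11.27 to 11.42) lay below it. By the test, 1 intestine marker rose and 0 fell at the low dose, and no marker of the other lists passed. Over all genes 1.55% passed at that dose. No defining marker was at 0, and the neuron markers rgef-1 and unc-31 were among the dimmest 25% of genes. The array's own control probesets for the ends of the actin transcripts gave high dose differences of -0.43 at the 5′ end, -0.18 in the middle and -0.06 at the 3′ end. The high dose change at the 5′ end minus that at the 3′ end was -0.37 for actin, -0.33 for catalase, -0.17 for gly14, -0.09 for GAPDH and 0.59 for ubiquitin, so it was negative for 4 of the 5 control transcripts. The gly14 value rests on dim signals, from 5.17 to 6.54 at the 3′ end, where 6.26 is the limit of the dimmest 25% of genes. The part of other tissues or of RNA quality in the muscle results was not tested.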

How the data were processed

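The deposited values are log2 signals per probeset, 1 column per array, made by the authors from Affymetrix C. elegans arrays. The methods name RMA in Partek Genomics Suite, while the submitters' processing notes name MAS5 and Partek 6.4, so the summary algorithm is not settled, and 41 deposited values lie below 0. The methods tie the chip design to a dated release of the C. elegans genome sequence without a build name, and no coordinates were used. Of 22625 probesets, 77 control probesets, 895 without a gene and 887 naming more than 1 gene were not tested, and the probeset with the highest mean over the arrays stood for each of 17118 genes. Gene names came from the platform annotation, updated through a RefSeq gene table, with 65 probesets resolved by symbol.

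One model of the 3 groups was fitted with limma 3.58.1 in R 4.3.3 (lmFit, eBayes, 6 residual and 1.45 prior degrees of freedom), with Benjamini-Hochberg adjustment in each of 3 comparisons. At the high dose, further probesets of the members were tested in the same model over the 21653 probesets with a gene. Second probesets of related genes, and those of unc-52 and unc-112 between the doses, were tested otherwise. Their values come from a fit over genes with the second brightest probeset in place of the brightest. The script was tested on simulated data. The members, lists and tests were chosen with earlier results of these data known. The naming rule took, in full, the members that passed with the 6 largest changes in each direction at the high dose, any that passed at the low dose, and every member of a role group with calls in both directions. It also took the 3 largest rises and falls that passed in each related list. Replicate numbers did not pair the arrays (correlations of deviations from -0.03 to 0.03). Alternatives were no moderation, other fold thresholds, dim genes left out, 2 other scalings, the mean of a gene's probesets, a variance trend, a fit of the 2 groups alone, a block for the replicate number, and the omission of each array. The second brightest probeset and the background of the brighter 50% were added after seeing the data. Plots used matplotlib 3.10.9 (Python 3.11.15).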

Additional observations from a re-analysis of the deposited data

How the results depend on the processing

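At the high dose the count of members that fell was 12, and it ran from 8 (1.5 fold threshold) to 18 (variance trend with robust estimation), and from 8 to 12 with single arrays left out. The single increase, unc-97, was kept in every alternative, as were the decreases of pat-4, pat-6, dim-1 and unc-27. At the low dose the trend fit called 1 member down in place of 0. Between the doses the 7 decreases became 14 without moderation, 13 without the dimmest 25% of genes, 11 with the mean of a gene's probesets, 16 with the trend fit and 11 with the second brightest probeset, an alternative chosen after seeing the data, and 7 to 8 with single arrays left out. The trend fit gave 2 increases in place of 1. Leaving out dim genes tests fewer genes. The cause of the other shifts was not tested.

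For the related genes at the high dose, the 2 increases became 5 without the dimmest genes and 6 with the trend fit (2 to 4 with single arrays left out), and the 21 decreases became 34 with the trend fit (12 to 22). At the low dose 1 gene fell in place of 0 without the dimmest genes and with the trend fit, and leaving out single arrays gave 0 to 1 in each direction. Between the doses the trend fit gave 4 increases in place of 2 (2 to 3 with single arrays left out), and the 21 decreases became 9 with only the 2 groups compared (11 to 17). The second mua-3 probeset gave 0.48 (adjusted p = 0.767) in place of the decrease of its brightest one. With the replicate number as a block, 13 members fell and 1 rose at the high dose, unc-68 being added (adjusted p = 0.0200), 7 fell and 1 rose between the doses, and 0 passed at the low dose. The related genes then had 17 decreases at the high dose and 14 between the doses. The numbers pair no samples, and 4 of 9 arrays correlated best with an array of their own number. With 3 arrays per group, the 95% confidence interval of 19 members spanned 0 at the high dose, and changes of any size within those intervals remain possible for them. A limma p under 0.05 before adjustment was reached by 19 members, and 13 passed after adjustment.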
